A study of Arabidopsis thaliana with 8 samples.

Results

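The irx3-2 mutant and wild-type Arabidopsis thaliana seedlings were compared on lincomycin, with 2 libraries for each genotype. A gene was taken as measured when at least 2 of these 4 libraries held at least 10 normalized counts, which left 18939 of the 36917 genes in the deposited tables. The wild type was Col-0. All seedlings were 5 days old and grew on agar of Murashige and Skoog medium (MS) at 22 °C, under white lamps that stayed on throughout (100 µmol photons m-2 s-1), with 1% sucrose; for the comparison on lincomycin, both genotypes received the antibiotic at 50 µg/ml. The same genotypes on MS without the antibiotic, again with 2 libraries each, served to show whether a difference was also present without the drug. RNA came from seedlings, and the labels do not say whether libraries of a group came from separate plates or plants, and every p-value therefore reflects only how much these libraries vary, which may be technical. The nature of the irx3-2 lesion is not given in the sources used here.

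IRX3 is another name of CESA7, one of the cellulose synthase subunits that build the secondary wall of xylem vessels and fibres, and mutants of these subunits have collapsed vessels. Lincomycin blocks protein synthesis on the ribosomes of plastids, which disturbs chloroplast development in the young seedling. Plastids in this state act on the nucleus by retrograde signalling, which lowers the transcripts of many photosynthesis genes. The series concerns how a defect in the secondary wall bears on the response to lincomycin.

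The 4 lincomycin libraries held between 15897775 and 17682533 reads on genes, and plastid genes took between 18.8% and 20.7% of them in either genotype. Nuclear ribosomal RNA took between 0.0872% and 0.959% of the reads. Every fold change here is a difference of log2(normalized count + 1), with the standard error (SE) of the model, and understates the change of genes with low counts. A gene was called when the adjusted p of limma, corrected by the Benjamini-Hochberg method over the 20251 genes of the whole table, was under 0.05. In a bulk sample, fewer cells of a type and less RNA per cell cannot be told apart.

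On lincomycin, 1144 of the 18939 genes differed between irx3-2 and wild type, which is 6.04% of those measured. Of these, 675 (3.56%) were higher and 469 (2.48%) were lower in irx3-2. These shares are the background for the count of each gene list below. A difference of at least 2-fold was found for 320 of the called genes, 178 higher and 142 lower, and the plot of difference against mean level shows the many smaller differences among the others. On MS, only 44 of the same genes (0.232%) were called, 32 higher (0.169%) and 12 lower (0.0634%) in irx3-2. The difference on lincomycin itself differed from that on MS, by the interaction term, for 132 genes (0.697%). Of the 1144 calls, 24 were also calls on MS, 22 of them in the same direction. The genotype comparisons on MS and on lincomycin share no library, but both use 1 spread estimated over all 8 libraries. Libraries of a group correlated at 0.963 and 0.959 on MS and at 0.987 and 0.983 on lincomycin. The part of this difference in the numbers of calls was not tested. Of the calls, 93 were made again in each of the 4 fits that left out 1 lincomycin library, and 883 in none of them.

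**Figure D1:**
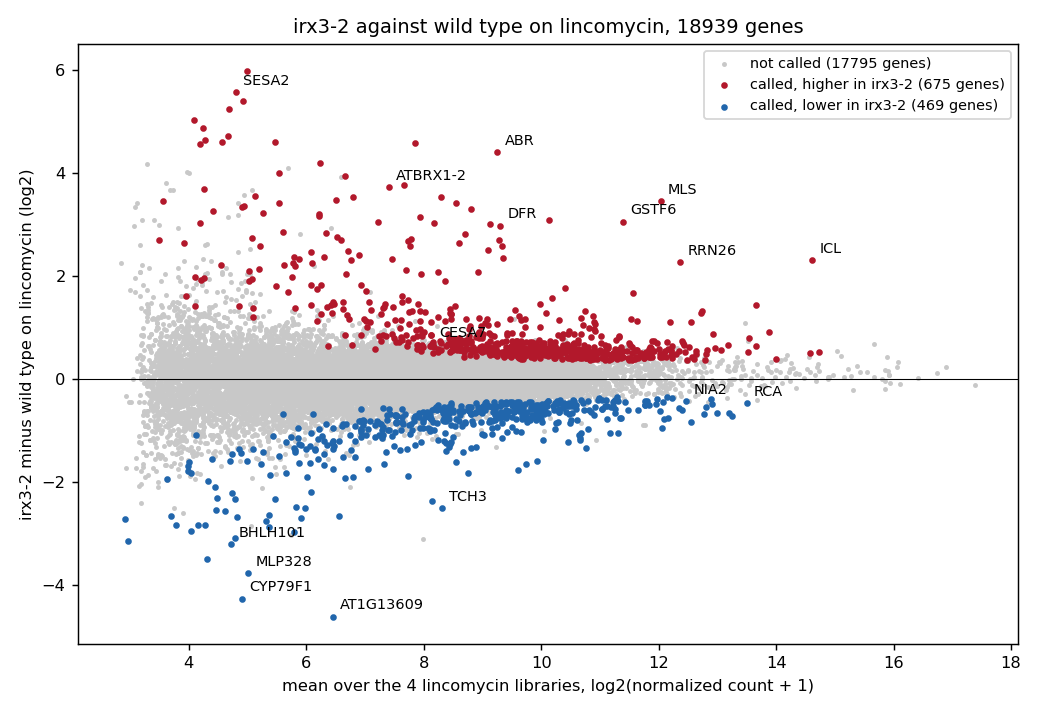
Difference between irx3-2 and wild type on lincomycin (log2, y axis) against the mean over the 4 lincomycin libraries (log2, x axis), 1 point per gene. Red points are the 675 genes called higher and blue points the 469 called lower, and the labels mark genes described in the text, from AT1G13609 at -4.62 to SESA2 at 5.56.

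Either genotype could stand apart among the called genes with a 2-fold or larger difference. For 117 of the 178 higher genes both irx3-2 lincomycin libraries lay above all of the other 6 libraries, while for 87 both wild-type lincomycin libraries lay below all of the others; a gene can meet both. Among all 9662 measured genes with a positive difference the shares were 29.6% and 19.4%. For 124 of the 142 lower genes the irx3-2 lincomycin libraries lay below all of the other 6, and for 30 the wild-type lincomycin libraries lay above them, beside 21.8% and 19.1% of all 9277 with a negative difference. Genes chosen for a called 2-fold difference stand apart more often by that choice, so nothing is read from these counts. Among the higher genes, 26 had wild-type lincomycin values more than 3-fold below every one of the other 6 libraries.

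CESA7 itself was higher in irx3-2. CESA7 stood at 222 and 210 normalized counts in the wild type on lincomycin and at 294 and 401 in irx3-2, a log2 difference of 0.67 (SE 0.16, adjusted p = 0.0347). The groups did not overlap, but the call was lost whichever of the 4 libraries was left out, with an adjusted p of up to 0.284. On MS the same gene stood at 265 and 278 in the wild type and at 712 and 712 in irx3-2, a log2 difference of 1.39 (adjusted p = 0.0076), and the interaction was not called. The nature of the lesion being unknown here, this level shows a difference between the labelled genotypes and not a loss of the gene. The other subunits of the secondary wall complex were not called: CESA4 stood at 252 and 207 against 215 and 217, and CESA8 at 150 and 166 against 114 and 126.

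No gene of xylan synthesis, of 15 measured, was called on lincomycin, nor any of 15 xylem regulators and effectors or of 10 primary wall cellulose genes. The medians of these lists were -0.25, -0.36 and -0.08 on the log2 scale, beside 0.00837 for all measured genes. The smallest p among the xylem genes belonged to XCP2, a cysteine protease of dying vessel cells, at 494 and 519 in the wild type against 370 and 363 in irx3-2 (log2 difference -0.47, adjusted p = 0.0821). Among receptor kinases that sense the state of the wall, 2 of 10 (20%) fell. THE1 fell by 0.51 on the log2 scale (SE 0.12, adjusted p = 0.0297), and FER, the FERONIA kinase, fell by 0.35 (SE 0.09, adjusted p = 0.0495). All 10 values of that list were below 0, and both calls were lost whichever of the 4 lincomycin libraries was left out, with adjusted p up to 0.28 for THE1 and 0.361 for FER.

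Among 17 genes of the phenylpropanoid pathway, which feeds both lignin and flavonoids, 5 were higher and 1 was lower. C4H, the second enzyme of the pathway, rose by 0.51 (SE 0.12), from 2241 and 2110 normalized counts in the wild type to 3023 and 3169 in irx3-2. HCT, which leads into the lignin branch, fell by 0.46 (SE 0.09), from 1066 and 998 to 742 and 755. The remaining calls were higher values of CCR1, 4CL3, COMT1 and CCOAOMT1, between 0.44 and 0.63. CCR1 shares most of its length with annotated neighbours, so that its reads may be split between genes. All of these calls were lost whichever of the 4 libraries was left out, with adjusted p up to 0.375.

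Of 10 late anthocyanin genes, which turn flavonoids into the red and purple pigments, 6 (60%) rose in irx3-2, and the median of the list was 2.61. DFR, the reductase at the entry of the branch, stood at 144 and 140 normalized counts in the wild type and at 1184 and 1054 in irx3-2. Both irx3-2 libraries were above every other library of the series, since on MS DFR ranged from 329 to 726. The log2 difference of DFR on lincomycin was 2.97 (SE 0.23, adjusted p = 0.000116), beside 0.54 (SE 0.23) on MS, where it was not called. LDOX, the next enzyme, stood at 117 and 128 against 1134 and 862, a difference of 3.01 (SE 0.26, adjusted p = 0.000216). UF3GT, a glycosyltransferase, rose from 83 and 45.5 to 568 and 455, a difference of 3.03 (SE 0.29, adjusted p = 0.000416). GSTF12, the glutathione transferase needed to bring the pigment to the vacuole, rose from 111 and 103 to 679 and 663, a difference of 2.64 (SE 0.20, adjusted p = 0.000114).

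The other calls of that list were AT4G14090, a glucosyltransferase, at 2.71 (SE 0.25) and 5MAT, a malonyltransferase, at 2.58 (SE 0.34). For 5 of the 6 called genes the difference on lincomycin exceeded that on MS by the interaction term, and the exception was 5MAT (adjusted p = 0.0736). The 5 genes other than 5MAT were called in each of the 4 fits that left out a library; 5MAT was lost without wild-type replicate 3 and without irx3-2 replicate 2, with an adjusted p of up to 0.058. AT4G14090 overlaps annotated neighbours over 27.1% of its length. AT1G03940, AT1G03495, SCPL10 and BGLU10 were not called, with differences between 0.32 and 0.89.

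Of 8 early flavonoid and flavonol genes measured, 6 were called higher, and the median of the list was 0.76. CHS, chalcone synthase, stood at 7577 and 6774 in the wild type and at 11084 and 11491 in irx3-2, a difference of 0.66 (SE 0.09, adjusted p = 0.0035). F3'H, the hydroxylase that sets the colour class, rose from 97.7 and 107 to 811 and 638, a difference of 2.80 (SE 0.29, adjusted p = 0.000696). FLS1, flavonol synthase, stood at 1450 and 1379 against 1903 and 1962 (0.45) and UGT78D1 at 1259 and 1030 against 1348 and 1571 (0.35), and neither was called. UGT78D2 was 1.15 higher (SE 0.11), CHI 0.86 (SE 0.19) and CHIL 0.57 (SE 0.14), and the sixth call was UF3GT, which stands in both lists. F3'H, UGT78D2 and UF3GT held in all 4 fits with a library left out. CHI and CHIL were lost in each of the 4, and CHS without wild-type replicate 3 and without either irx3-2 library, with adjusted p up to 0.338. Among 10 regulators, only PAP1 was called, a MYB factor that switches the late genes on. It reached 10 normalized counts in the irx3-2 libraries only, so it could be measured here only if it was higher in irx3-2. PAP1 stood at 7.06 and 8.61 against 61.7 and 54.2, a difference of 2.74 (SE 0.46, adjusted p = 0.00838), and was lost in each of the 4 fits with a library left out, with an adjusted p of up to 0.121. TT8, its bHLH partner, stood at 31.8 and 27.7 against 87.3 and 64.7 and was not called (adjusted p = 0.159).

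The bases before the annotated start of the 3 late anthocyanin genes with the largest differences are shown because these genes moved together; they are read 5′ to 3′ on the strand of the gene from the RefSeq copy of assembly TAIR10.1. Capitals mark the G-box CACGTG, searched on both strands. The window is chr5:17166033-17166282 for DFR, chr4:12006210-12006459 for LDOX and chr5:21938397-21938646 for UF3GT, all on the minus strand.
DFR: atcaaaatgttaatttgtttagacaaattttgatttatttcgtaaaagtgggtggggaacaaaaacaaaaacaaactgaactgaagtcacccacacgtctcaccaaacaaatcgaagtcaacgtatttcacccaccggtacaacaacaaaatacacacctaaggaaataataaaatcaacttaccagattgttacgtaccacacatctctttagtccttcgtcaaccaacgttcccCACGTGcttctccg
LDOX: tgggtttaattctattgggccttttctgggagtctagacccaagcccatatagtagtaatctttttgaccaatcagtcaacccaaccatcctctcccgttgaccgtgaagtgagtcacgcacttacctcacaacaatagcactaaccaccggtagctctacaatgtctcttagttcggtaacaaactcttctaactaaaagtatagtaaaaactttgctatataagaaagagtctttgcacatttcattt
UF3GT: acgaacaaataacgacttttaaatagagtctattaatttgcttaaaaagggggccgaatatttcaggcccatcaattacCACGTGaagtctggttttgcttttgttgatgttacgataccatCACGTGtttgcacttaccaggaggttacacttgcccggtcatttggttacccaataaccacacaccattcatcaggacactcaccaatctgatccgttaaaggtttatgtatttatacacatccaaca
DFR has 1 G-box in these 250 bases, UF3GT has 2 and LDOX has none. Over all measured genes whose 250 bases did not run into another gene, 943 of 12846 windows (7.34%) held it, and 55 of 451 (12.2%) among the genes called higher.

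A second set of higher genes held some that were lowest in the wild type on lincomycin. The genes of this set encode factors that cut, modify and assemble ribosomal RNA. The set was picked after the values were seen, from words in the gene descriptions. Of 144 such genes measured, 28 (19.4%) were called higher and none lower, with a median of 0.33. Among all measured genes 3.56% were higher. The interaction was called for 5 of the 144. ATBRX1-2, one of the plant counterparts of a yeast factor for the large ribosomal subunit, stood at 23.5 and 22.1 normalized counts in the wild type on lincomycin and at 309 and 318 in irx3-2. On MS it stood at 294 and 295 in the wild type and at 208 and 220 in irx3-2, so that the wild type on lincomycin alone was low. The difference on lincomycin was 3.72 (SE 0.17, adjusted p = 4.38e-06) and that on MS was -0.46 (SE 0.17, not called).

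IMP4, a protein of the small nucleolar particle that processes ribosomal RNA, stood at 40.6 and 17.2 in the wild type on lincomycin against 384 and 361 in irx3-2, with 208 and 227 in the wild type on MS (difference on lincomycin 3.76, SE 0.36). MEE49, which carries the same Brix domain, stood at 47.1 and 51.0 against 434 and 444, with 385 and 333 in the wild type on MS (3.14, SE 0.16). ATBRX1-1 stood at 17.7 and 10.5 against 126 and 139 (3.19, SE 0.31), and DIM1B, a dimethylase of ribosomal RNA, at 15.3 and 23.4 against 141 and 138 (2.82, SE 0.35). For all 5 the interaction was called, and each was called in all 4 fits with a library left out. The other 23 called genes of the set were each lost in at least 1 of those fits; AT1G50000 stood at 18.8 and 14.1 against 71.0 and 88.9 (2.21, SE 0.34), and the remaining ones differed by at most 0.61.

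Several genes outside the set, also chosen after their values were seen, were likewise lowest in the wild type on lincomycin. AT3G13180, annotated as a NOL1/NOP2/sun family protein, stood at 78.3 and 85.5 in the wild type on lincomycin against 877 and 747 in irx3-2, with 460 and 448 in the wild type on MS (difference 3.29, SE 0.15). FIO1, a methyltransferase that modifies RNA, stood at 16.5 and 11.7 against 122 and 142 (3.15, SE 0.31). AT5G40530, another methyltransferase family member, stood at 21.2 and 15.98 against 105 and 88.9 (2.33). MSL9, a mechanosensitive channel, stood at 17.1 and 15.98 against 241 and 167 (3.53, SE 0.44), and the lectin family gene AT2G25980 at 28.2 and 33.2 against 188 and 163 (2.48, SE 0.30). AT2G07739 stood at 17.1 and 18.4 against 478 and 410 (4.57, SE 0.22). All of these held in each fit with a library left out.

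RRN26, the mitochondrial 26S ribosomal RNA, was higher in irx3-2 on lincomycin and lower in irx3-2 on MS. On lincomycin it stood at 1629 and 2003 in the wild type and at 8943 and 8497 in irx3-2, a difference of 2.27 (SE 0.11, adjusted p = 4.38e-06). On MS it stood at 31053 and 31755 in the wild type and at 12103 and 13155 in irx3-2, a difference of -1.32 (adjusted p = 0.00122), and the interaction was 3.59 (adjusted p = 6.24e-06). Of 85 measured genes of the mitochondrial genome, grouped after the values were seen, 3 (3.53%) were called higher on lincomycin. Among all measured genes that share was 3.56%, so nothing is read from this count. The calls other than RRN26 were ORF240A at 0.57 and the ribosomal protein gene RPL2 at 0.38. How ribosomal RNA was kept out of the libraries is not given in the sources used here, and its part in the level of RRN26 was not tested. Chromosome 2 carries a copy of mitochondrial DNA, so that reads of RRN26 and AT2G07739 may be split between copies.

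**Figure D2:**
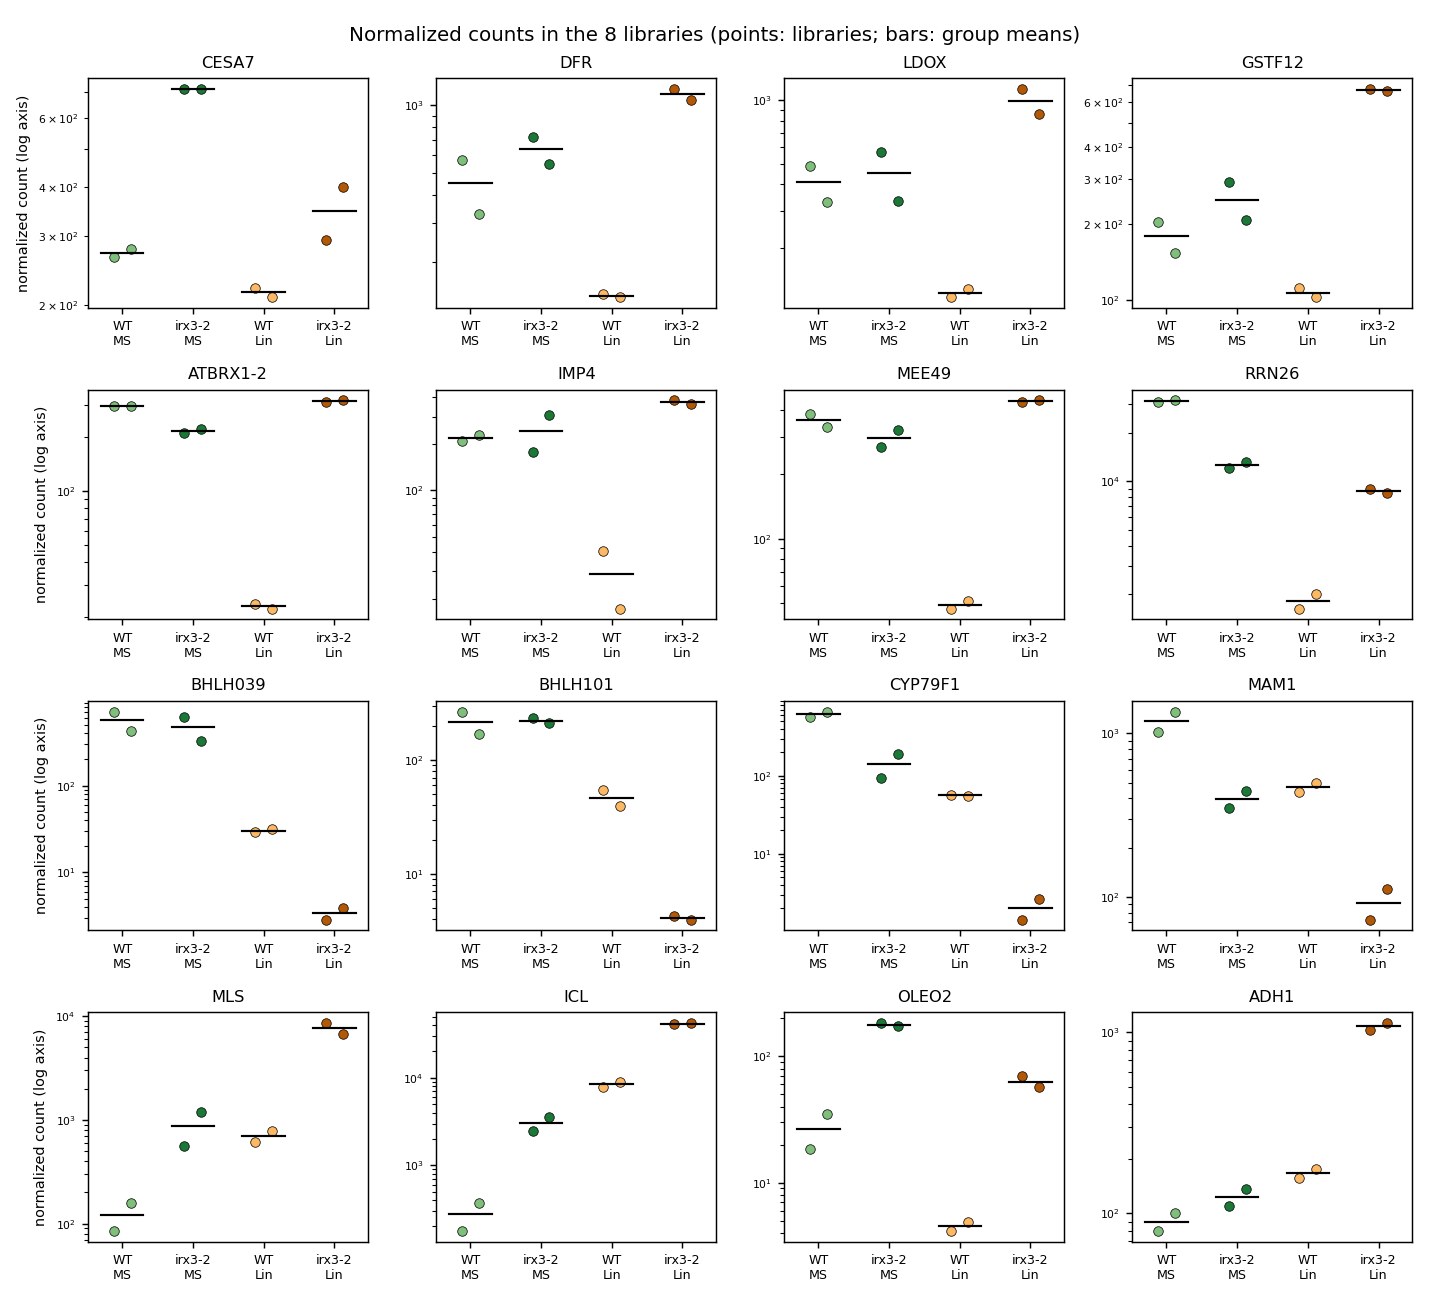
Normalized counts (log axis, a scale of its own for each gene) of 16 genes in the 8 libraries, grouped by genotype and medium; points are libraries and bars are the means of the 2. ATBRX1-2, IMP4, MEE49 and RRN26 are lowest in the wild type on lincomycin, BHLH039, BHLH101, CYP79F1 and MAM1 are lowest in irx3-2 on lincomycin, and ADH1 rises from 158 and 176 in the wild type on lincomycin to 1033 and 1127 in irx3-2.

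Transcripts of the ribosomal proteins themselves were counted as a further group. Of 268 genes described as structural constituents of a ribosome, again grouped after the values were seen, 66 (24.6%) were called higher and none lower. The median was 0.37, 22 of the 268 values were negative, and the largest called difference was 0.82 for AT3G44590. Of 28 plastid ribosomal proteins, 7 were higher and none lower, with a median of 0.37; PRPL13 rose by 0.55 (SE 0.10) and PRPL35 by 0.53 (SE 0.11). In all 28 both irx3-2 libraries lay above both wild-type libraries, a pattern that 30.8% of all measured genes had. Some plastid proteins belong to both lists, and each of these calls was lost in at least 1 fit with a library left out. With size factors from nuclear genes without ribosomal RNA, the counts were 51 of 268 and 4 of 28.

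The free bases before 3 of the assembly genes are shown because a motif known from ribosomal genes, site II (TGGGCC, or GGCCCA on the other strand, in capitals), is frequent there. ATBRX1-2 has chr1:19711082-19711178 on the plus strand, IMP4 has chr1:23667373-23667484 on the minus strand and MEE49 has chr4:679277-679471 on the minus strand, each ending where the next annotated gene begins.
ATBRX1-2: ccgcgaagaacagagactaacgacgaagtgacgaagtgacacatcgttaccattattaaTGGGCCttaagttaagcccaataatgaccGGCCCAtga
IMP4: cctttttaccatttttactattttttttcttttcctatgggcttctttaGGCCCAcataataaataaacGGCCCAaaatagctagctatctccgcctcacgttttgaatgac
MEE49: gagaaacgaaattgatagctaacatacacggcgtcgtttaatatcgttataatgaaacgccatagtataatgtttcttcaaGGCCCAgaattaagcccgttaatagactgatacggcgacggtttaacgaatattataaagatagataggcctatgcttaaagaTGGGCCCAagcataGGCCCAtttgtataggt
These windows run into the next gene and are therefore not among those counted below. The motif occurs 2 times before ATBRX1-2, 2 times before IMP4 and 4 times before MEE49, where a pair of matches on opposite strands overlap. Among 250-base windows free of other genes, 70 of 135 structural ribosome genes (51.9%) and 31 of 75 assembly genes (41.3%) held it, beside 15.5% of all measured genes. It stood in 117 of 451 windows (25.9%) of the genes called higher and in 20 of 409 (4.89%) of those called lower. Among assembly genes called higher, 4 of 11 windows (36.4%) held it, no larger a share than the 41.3% of all assembly genes. The part of ribosomal genes in the share among higher calls was not tested.

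**Figure D3:**
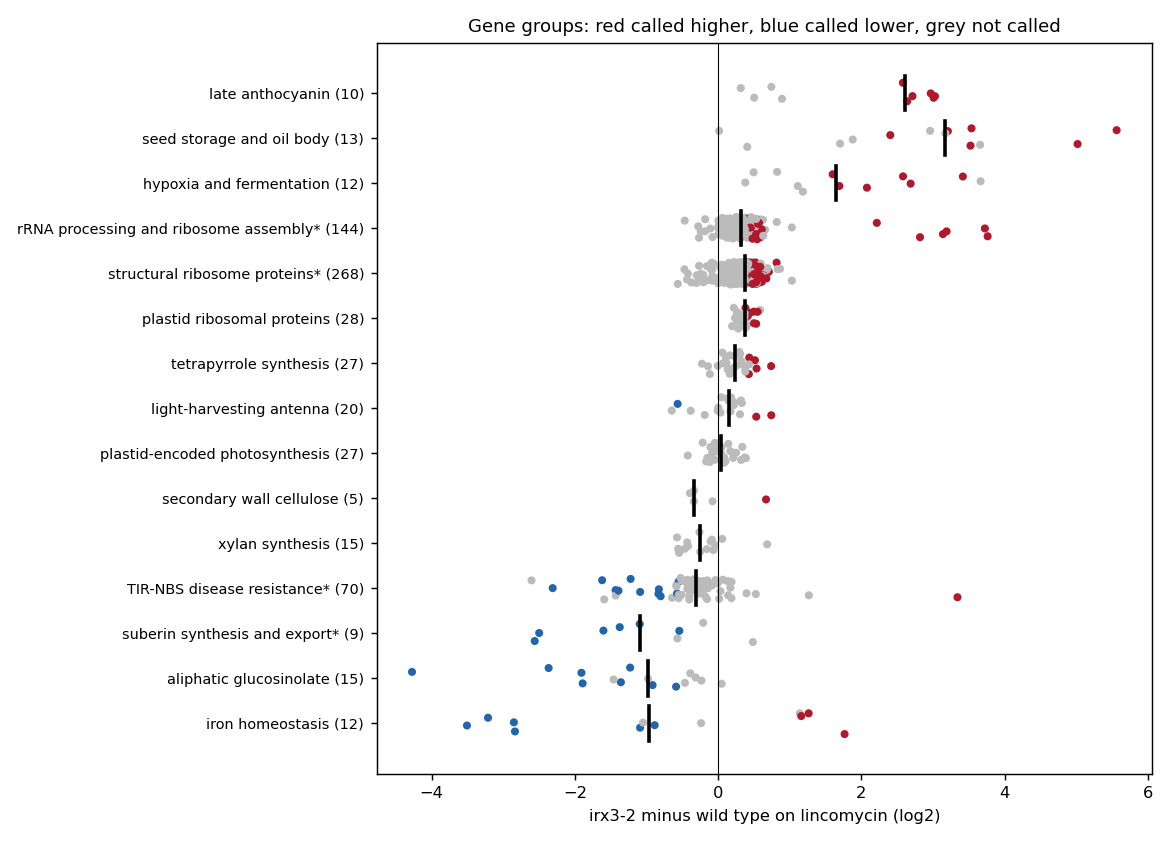
Difference between irx3-2 and wild type on lincomycin (log2, x axis) for each measured gene of 15 groups (number in brackets), with called genes in red or blue, the others in grey and the median as a bar. An asterisk marks groups made from gene descriptions or picked after the values were seen. Anthocyanin genes lie to the right, with a median of 2.61, as do seed genes, in part through the filter. Suberin, glucosinolate and iron genes, some of which passed the filter through the wild type only, lie to the left, with medians of -1.09, -0.98 and -0.97.

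Lincomycin lowers the transcripts of photosynthesis genes, and their calls between the genotypes stand beside 3.56% higher and 2.48% lower among all measured genes. Of 20 light-harvesting antenna genes, 2 (10%) were higher and 1 (5%) was lower, with a median of 0.16. LHCB1.1, a protein of the main antenna of photosystem II, stood at 438 and 397 in the wild type and at 719 and 678 in irx3-2, a difference of 0.74 (SE 0.10, adjusted p = 0.00332), far under the 33127 to 46342 of the MS libraries. LHCA6 rose by 0.53 (SE 0.13), and LHCB1.4 fell by 0.57 (SE 0.13), from 188 and 189 to 113 and 142. LHCB1.1 has near-identical neighbours, LHCB1.2 and LHCB1.3, which were not called (0.33 and -0.01), so that reads may be split among them. LHCB1.1 was lost without wild-type replicate 3 and without irx3-2 replicate 2, and the other 2 calls whichever library was left out, with adjusted p up to 0.396. With size factors from nuclear genes, 1 antenna gene was higher and 2 were lower.

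Of 32 nuclear photosystem and electron transport genes 1 (3.12%) was called, and it was higher. Among all measured genes 3.56% were higher, so nothing is read from this count. It was FD1, a ferredoxin, at 1403 and 1286 against 2377 and 2328 (0.81, SE 0.16). Of 20 Calvin-Benson cycle genes 2 (10%) fell. RCA, the activase of Rubisco, fell from 13296 and 13618 to 9804 and 9592 (-0.47, SE 0.11). CP12-2 fell from 163 and 129 to 99.4 and 94.1 (-0.58, SE 0.15). None of 27 photosynthesis genes of the plastid genome was called (median 0.04), nor any of 9 genes read by the nuclear-encoded plastid polymerase (median 0.13). In the plastid transcription machinery, 3 of 15 (20%) rose: FSD3 by 0.68, TRXZ by 0.65 and FLN1 by 0.49. Of 27 genes of tetrapyrrole synthesis, which makes chlorophyll and haem, 5 (18.5%) rose and none fell, with a median of 0.23. The largest was PCB2, a reductase late in chlorophyll synthesis, at 594 and 556 against 969 and 951 (0.74, SE 0.13, adjusted p = 0.0106). GSA2 rose by 0.54 and CHLI1, a subunit of magnesium chelatase, by 0.51. None of 8 regulators of greening and plastid signalling was called; GLK1 stood at 311 and 309 against 381 and 398 (adjusted p = 0.12) and GUN1 at 4012 and 3803 against 4666 and 4520. The calls named here from FD1 to CHLI1 were each lost whichever of the 4 libraries was left out, with adjusted p up to 0.338.

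Of 12 iron genes measured, 3 were higher and 6 lower in irx3-2. Of the 6 lower ones, 4 reached 10 normalized counts on lincomycin in the wild type only, so the filter partly fixes that count. The lower ones were led by the bHLH factors that switch on iron uptake when iron is short. BHLH039 stood at 29.4 and 31.4 normalized counts in the wild type and at 2.84 and 3.92 in irx3-2 (-2.85, SE 0.35, adjusted p = 0.00187). BHLH101 stood at 54.1 and 39.3 against 4.26 and 3.92 (-3.21, SE 0.32, adjusted p = 0.000479), and BHLH100 at 36.5 and 29.5 against 3.55 and 3.92 (-2.84, SE 0.30, adjusted p = 0.000696). On MS these 3 ranged from 169 to 980 in both genotypes and were not called; the interaction was called for BHLH101 and BHLH100. BHLH038 stood at 30.6 and 39.3 against 4.97 and 0.653, but 31.9% of its length lies within a neighbouring gene.

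BTS, the ligase that restrains the iron response, fell by 1.09 (SE 0.20), and PYE, another bHLH factor of the response, by 0.89 (SE 0.22). The higher ones were ferritins, the plastid and mitochondrial proteins that store iron. FER1 stood at 623 and 610 against 2017 and 2180 (1.76, SE 0.21), FER3 at 331 and 335 against 764 and 729 (1.16, SE 0.18) and FER4 at 187 and 229 against 509 and 487 (1.26, SE 0.21). FER1 shares 63.6% of its length with an overlapping annotation. BHLH039, BHLH100, BHLH101 and FER1 held in all 4 fits with a library left out. BHLH038 was lost without either wild-type library, and BTS, PYE, FER3 and FER4 whichever library was left out, with adjusted p up to 0.266.

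Of 13 genes of storage proteins and oil bodies, 6 rose in irx3-2 on lincomycin and 2 on MS. On lincomycin 7 of the 13, with 4 of the 6 calls, reached 10 normalized counts in the irx3-2 libraries and in neither wild-type library; such genes could be measured only if they were higher in irx3-2, so the count and the median of the list (3.17, also with genes at 0 reads set to their bound) are partly fixed by the filter. SESA2, a storage albumin, had no read in either wild-type lincomycin library and stood at 26.3 and 81.0 in irx3-2, at least 60.7-fold higher when 3 reads over the wild-type group are allowed. SESA1 was likewise at 0 in the wild type and at 25.6 and 38.6 in irx3-2, at least 35.8-fold higher. OLEO2, an oleosin that coats oil bodies, stood at 4.12 and 4.92 against 69.6 and 56.9 (3.54, SE 0.39, adjusted p = 0.000937). CRA1, a cruciferin, stood at 66.5 and 32.6 against 755 and 395 (3.52, SE 0.53).

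The calls on MS were OLEO2 and SESA1 (2.77 and 5.54), the median there was 2.15, and no gene of the list had a called interaction. SESA2 and OLEO2 held in all 4 fits with a library left out; CRA1 was lost without wild-type replicate 3 and without irx3-2 replicate 2, and SESA1, OLEO1 and CRU3 whichever library was left out, with adjusted p up to 0.151. Sequence before 2 of these genes is shown because most of the list carries the RY motif CATGCA, known from seed genes, which is in capitals together with the G-box CACGTG. SESA2 has chr4:13609091-13609340 on the plus strand and CRA1 has chr5:17758337-17758586 on the minus strand.
SESA2: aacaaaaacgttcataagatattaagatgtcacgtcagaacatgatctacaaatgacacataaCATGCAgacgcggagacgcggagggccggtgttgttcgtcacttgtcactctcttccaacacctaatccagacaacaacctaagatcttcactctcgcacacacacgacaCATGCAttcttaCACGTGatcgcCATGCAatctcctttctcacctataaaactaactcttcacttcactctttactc
CRA1: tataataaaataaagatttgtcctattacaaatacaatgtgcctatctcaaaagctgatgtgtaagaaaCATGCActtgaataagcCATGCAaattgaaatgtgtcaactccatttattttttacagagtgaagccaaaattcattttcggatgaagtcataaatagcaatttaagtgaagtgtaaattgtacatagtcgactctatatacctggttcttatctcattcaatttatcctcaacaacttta
The RY motif stood in 9 of the 12 windows of this list that were free of other genes and in 8.06% of those of all measured genes. The G-box stood in 7 of the 12.

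Of 7 genes of the glyoxylate cycle and gluconeogenesis, which turn stored oil into sugar, 6 rose on lincomycin; this group was picked after the values were seen. MLS, malate synthase, stood at 614 and 789 in the wild type and at 8633 and 6725 in irx3-2 (3.45, SE 0.34, adjusted p = 0.000461). ICL, isocitrate lyase, stood at 7902 and 9032 against 40746 and 42398 (2.3, SE 0.28, adjusted p = 0.00169). Both differed on MS too, by 2.81 for MLS and 3.54 for ICL, and without a called interaction. PCK1, which makes phosphoenolpyruvate for sugar synthesis, stood at 6725 and 7267 against 18985 and 18683 (1.43, SE 0.09, adjusted p = 2.95e-05), and was not called on MS (0.32). The interaction was called for PCK1 and CSY3. CSY3 and PMDH1 were 1.44 and 1.18 higher. MLS, ICL, PCK1, CSY3 and PMDH1 held in all 4 fits with a library left out, and CSY2 (0.60) in none, with an adjusted p of up to 0.202.

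Proteins that protect drying seeds gave a mixed count. Of 42 genes described as late embryogenesis abundant, grouped after the values were seen, 6 (14.3%) rose and 1 (2.38%) fell. ABR stood at 43.0 and 62.1 against 1522 and 806 (4.40, SE 0.26, adjusted p = 1.80e-05), with 537 to 807 on MS in both genotypes, so that it was low only in the wild type on lincomycin. LEA4-5 had the same order, at 25.9 and 19.7 against 115 and 108 (2.25). Both held in every fit with a library left out. In the list of abscisic acid and dehydration genes, 3 of 18 rose and 1 fell: ABI3, a master regulator of seed maturation, by 2.12 (SE 0.50), KIN2 by 1.35 (SE 0.19) and KIN1 by 1.33 (SE 0.22), while ERD5, proline dehydrogenase, fell by 0.78 (SE 0.13). ABI3 and ERD5 were lost whichever library was left out, KIN1 without wild-type replicate 1 and irx3-2 replicate 3, and KIN2 without wild-type replicate 1 and irx3-2 replicate 2, with adjusted p up to 0.259.

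Of 15 measured aliphatic glucosinolate genes, which make the mustard oil precursors of leaves from methionine, 8 (53.3%) fell and none rose, with a median of -0.98. The filter let in 2 of the 15 through the wild type only, and 1 of these, CYP79F1, was called. CYP79F1, which starts the core pathway, stood at 56.5 and 55.9 normalized counts in the wild type and at 1.42 and 2.61 in irx3-2 (-4.27, SE 0.36, adjusted p = 0.000216). MAM1, which lengthens the side chain, stood at 438 and 498 against 72.4 and 111 (-2.37, SE 0.22, adjusted p = 0.000364), and CYP83A1, the next core enzyme, at 304 and 361 against 83.7 and 93.4 (-1.89, SE 0.17, adjusted p = 0.000364). BASS5, the transporter that carries the chain-elongation acids into the plastid, stood at 91.8 and 109 against 23.4 and 28.8 (-1.91, SE 0.34).

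On MS, CYP79F1 and MAM1 were called lower as well (-2.18 and -1.58), the median was -0.47, and no interaction was called in the list. CYP79F1, MAM1 and CYP83A1 held in all 4 fits with a library left out; BASS5 and SOT18 were lost in each, IMD1 without either wild-type library, and CYP79F2 and BCAT4 in all but the fit without irx3-2 replicate 3, with adjusted p up to 0.346. The regulators MYB28 and MYB29 were not called (-0.31 and -0.98). Of 9 indole glucosinolate and camalexin genes, only CYP79B3 fell (-0.78, SE 0.16).

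Of 9 measured suberin genes, which make the lipid barrier of the root endodermis, 6 (66.7%) fell on lincomycin. This list was drawn up after the values were seen. The filter let in 1 of the 9 through the wild type only, and that gene was called. ABCG6, an exporter of suberin monomers, stood at 119 and 72.5 in the wild type and at 17.7 and 13.7 in irx3-2 (-2.50, SE 0.28, adjusted p = 0.00112), and at 373 to 545 on MS in both genotypes, with a called interaction. RWP1, the transferase that adds ferulate to suberin, stood at 308 and 293 against 116 and 114 (-1.37, SE 0.17, adjusted p = 0.00169), again with a called interaction. GPAT5 (-2.56), CYP86B1 (-1.60), CYP86A1 (-1.09) and KCS20 (-0.54) were the other calls. ABCG6 and RWP1 held in all 4 fits with a library left out, GPAT5 only without irx3-2 replicate 3, and the other 3 in none, with adjusted p up to 0.302. Summed over 5 listed markers of endodermis and cortex, the wild-type libraries stood at 105 and 129 and the irx3-2 libraries at 118 and 155, and none of the 4 measured was called.

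Most calls among defence genes were lower. WRKY70, a regulator between the salicylate and jasmonate responses, stood at 202 and 148 against 45.4 and 45.1 (-1.91, SE 0.26, adjusted p = 0.00293), and was the 1 call among 6 salicylate and pathogen genes. None of 14 jasmonate genes was called; LOX4 had the smallest p (-1.17, adjusted p = 0.0664). Of 70 disease resistance genes of the TIR-NBS class, grouped after the values were seen, 11 (15.7%) fell and 1 (1.43%) rose. The filter let in 2 of the 70 through the irx3-2 libraries only and 2 through the wild type only, with 1 call in each case. AT4G19520 stood at 544 and 638 against 230 and 206 (-1.43, SE 0.14, adjusted p = 0.000426). The exception, AT5G46260, stood at 2.94 and 6.15 against 46.8 and 59.5 and was also called on MS (3.34 on each medium), and reads of such genes may be split among copies. Of 131 genes whose description names calmodulin, also grouped after the values were seen, 12 (9.16%) fell and 2 (1.53%) rose. Among all measured genes 2.48% fell and 3.56% rose. This group is a match of words and not a defence list. Its 2 higher calls were CML38 (1.90) and EF1A (0.50), which is also a reference gene. TCH3, a touch-induced calmodulin-like protein, stood at 465 and 613 against 90.13 and 94.8 (-2.52, SE 0.20), but overlaps other annotations over 43.9% of its length. AT4G19520 and TCH3 held in every fit with a library left out; WRKY70 was lost without wild-type replicate 1 (adjusted p = 0.0712), and AT5G46260 without wild-type replicate 1 or either irx3-2 library (adjusted p up to 0.0746).

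Of 12 genes of the hypoxia response, 6 (50%) rose, beside 3.56% of all measured genes, and the median was 1.65. ADH1, alcohol dehydrogenase, stood at 158 and 176 in the wild type and at 1033 and 1127 in irx3-2 (2.69, SE 0.18, adjusted p = 4.58e-05), with 79.7 to 136 on MS and a called interaction. SAD6, a fatty acid desaturase, stood at 66.5 and 59.6 against 608 and 765 (3.42, SE 0.42, adjusted p = 0.00187). PDC1, pyruvate decarboxylase, stood at 200 and 170 against 1160 and 1058 (2.58, SE 0.38), and HB1, a haemoglobin, at 192 and 175 against 688 and 877 (2.08, SE 0.43). HRA1 and PCO1 were 1.69 and 1.60 higher. ADH1 and SAD6 held in all 4 fits with a library left out and the other 4 in none, with adjusted p up to 0.272.

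Among chaperones, 7 of 13 heat shock and folding genes (53.8%) were higher and none lower, with a median of 0.56. HSP70-4 stood at 595 and 744 against 1473 and 1209 (1.00, SE 0.16), HSP90.1 at 340 and 346 against 738 and 525 (0.86, SE 0.19), and the plastid chaperonin CPN60A at 6616 and 6137 against 9912 and 9315 (0.59, SE 0.11). The interaction was called for HSP70-4, CPHSC70-1 and CPN60B1, and the last of these was not called on lincomycin alone. HSP70-4 held only without irx3-2 replicate 3, and the other 6 calls in no fit with a library left out, with adjusted p up to 0.337.

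Of 8 measured genes induced by sugar shortage, 5 (62.5%) fell, beside 2.48% of all measured genes, and none rose, with a median of -0.69. ASN1, an asparagine synthetase repressed by sugar, stood at 1292 and 1292 against 426 and 395 (-1.65, SE 0.21, adjusted p = 0.00187), with a called interaction. DRM2 stood at 2051 and 2372 against 1011 and 1125 (-1.05, SE 0.11). BXL1, DRM1 and DIN10 fell by between 0.67 and 0.73. SEN1 was not called on lincomycin (-0.10) but was higher on MS (0.98), and its interaction was called. In starch metabolism 5 of 17 genes (29.4%) rose and 1 (5.88%) fell. GPT2, which imports glucose phosphate into plastids, stood at 24.7 and 24.0 against 207 and 128 (2.69, SE 0.34, adjusted p = 0.00196). BAM3, a beta-amylase, stood at 915 and 681 against 422 and 397 (-0.94, SE 0.14). BAM3 overlaps other annotations over 21.8% of its length. ASN1 and DRM2 held in all 4 fits with a library left out; GPT2 was lost without irx3-2 replicate 2 (adjusted p = 0.0538), BAM3 without wild-type replicate 1 or either irx3-2 library, DRM1 and DIN10 in 3 of the fits, and the others in all, with adjusted p up to 0.403.

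**Figure D4:**
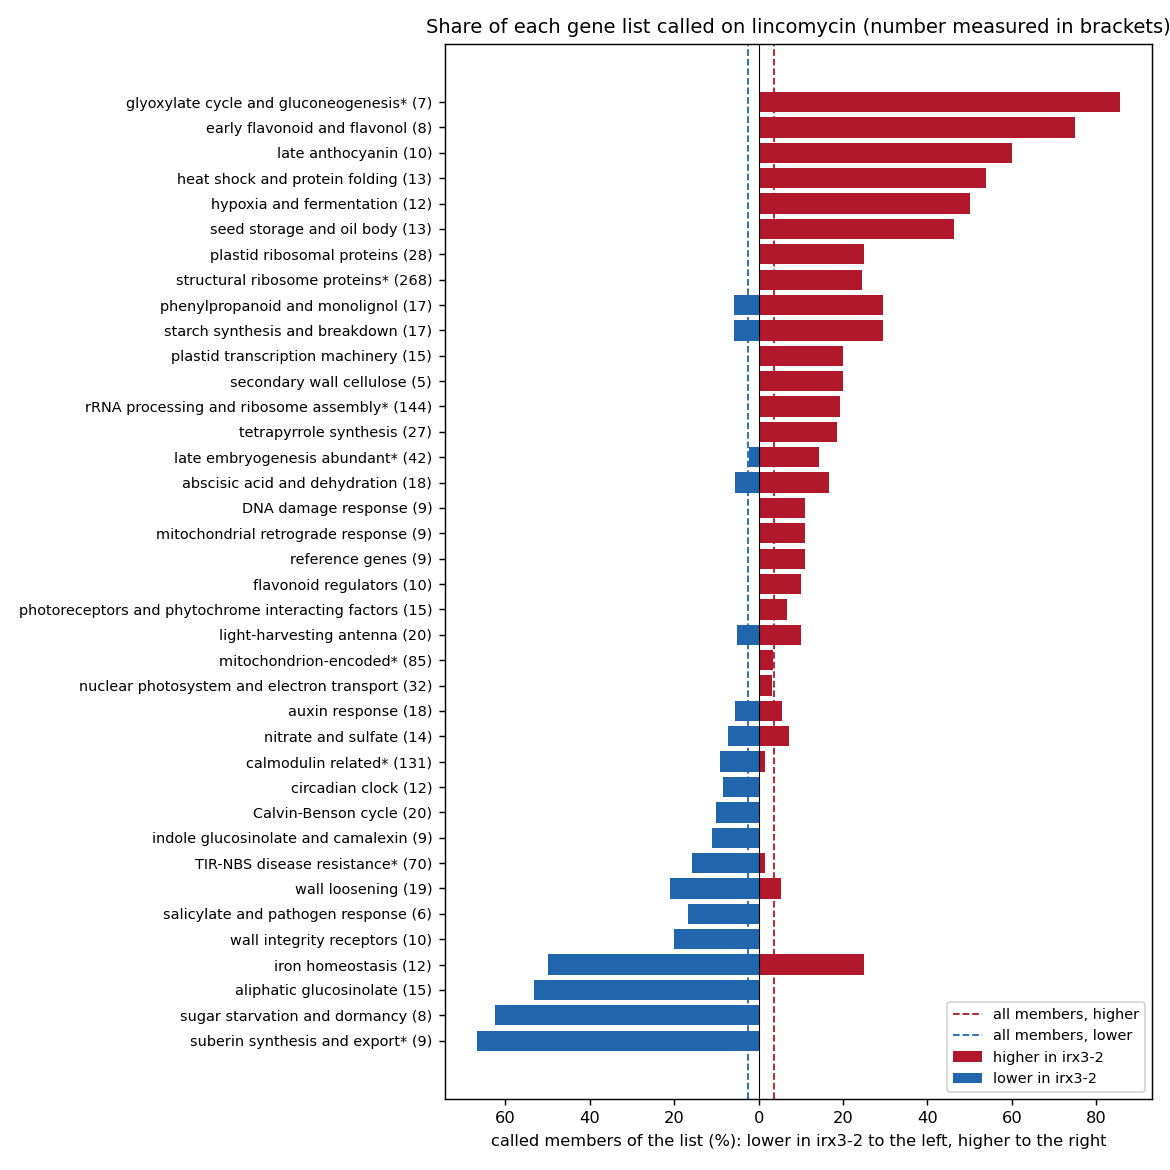
Share of each gene list called lower (left) or higher (right) in irx3-2 on lincomycin, with the number measured in brackets. Dashed lines are the shares of 2.48% and 3.56% among all measured genes. Lists with no call are left out. Cell type markers and transposable element genes are also left out, although some of them were called. An asterisk marks groups picked after the values were seen. Glyoxylate, flavonoid, heat shock, hypoxia and seed lists extend to the right, and suberin, sugar starvation, glucosinolate and iron lists to the left.

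The counts of the other lists stand beside 3.56% higher and 2.48% lower among all measured genes. The wall-loosening list had 1 higher (5.26%) and 4 lower (21.1%) of 19. The lower calls were led by EXPA8, an expansin, at 366 and 360 against 203 and 167 (-0.97, SE 0.13). Auxin genes had 1 higher, GH3.3 (1.70, SE 0.22), which conjugates auxin, and 1 lower, IAA2 (-0.52), of 18. In the clock list TOC1 fell by 0.43, 1 of 12. Among photoreceptors PHYA, the far-red light receptor, rose by 0.54 (SE 0.09), 1 of 15. AOX1A, the alternative oxidase of mitochondria, rose by 0.57 (SE 0.12), 1 of 9 in its list, and BRCA1 by 0.67 (SE 0.16), 1 of 9 genes of the DNA damage response. In nitrogen and sulfur assimilation NIR1 rose by 0.38 and NIA2, nitrate reductase, fell by 0.44, of 14. No gene of 19 of cell division was called. Among 9 reference genes EF1A was higher by 0.50 (SE 0.12). GH3.3 held in all 4 fits with a library left out, EXPA8 was lost without wild-type replicate 3 (adjusted p = 0.0508), and the others in all 4 fits, with adjusted p up to 0.333.

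Summed levels of marker genes differed for some cell types. Of 5 phloem markers measured 3 (60%) fell. The summed level of the list was 7764 and 7276 in the wild type and 5395 and 5750 in irx3-2. APL, the regulator of phloem identity, fell by 0.67, PP2-A1 by 0.60 and AHA3 by 0.45, and each was lost whichever library was left out, with adjusted p up to 0.258. Guard cell markers summed to 587 and 595 against 410 and 395, with none of 4 called. Leaf epidermis markers summed to 17066 and 17280 against 14431 and 14886, with CUT1, a wax enzyme, called lower of 5 and lost whichever library was left out (adjusted p up to 0.13). Shoot meristem markers summed to 1095 and 1054 against 914 and 946, and root hair markers to 101 and 82.99 against 91.6 and 156, with none of 4 called in either. The part of these shifts in the results above was not tested.

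Some of the genes with the largest differences were in none of the lists. On the lower side AT1G13609, a defensin-like peptide, stood at 158 and 177 normalized counts in the wild type and at 4.26 and 7.84 in irx3-2 (-4.62, SE 0.35, adjusted p = 0.000114), with 740 to 1508 on MS in both genotypes. MLP328, a major latex protein-like gene, stood at 58.3 and 59.6 against 4.26 and 2.61 (-3.78, SE 0.33), and the thionin AT1G66100 at 44.1 and 52.9 against 5.68 and 3.92 (-3.10, SE 0.25). PELPK1, a wall protein with pentapeptide repeats, stood at 110 and 82.99 against 8.52 and 15.03 (-2.97, SE 0.30), and OSM34, an osmotin, at 99.5 and 106 against 11.4 and 19.6 (-2.70, SE 0.28). These 5 were not called on MS, all had a called interaction, and all held in the 4 fits with a library left out. AT2G00920 (-2.84), AT5G13900 (-2.67) and AT5G15360 (-2.96), which are of unknown role, fell too; AT2G00920 was lost without wild-type replicate 3, AT5G13900 in 3 of the fits and AT5G15360 in all, with adjusted p up to 0.24.

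Transposable element genes among the largest lower calls differed on both media. SADHU3-2, a retrotransposon, stood at 62.4 and 81.1 against 6.39 and 11.8 on lincomycin (-2.89, SE 0.48) and differed by -3.22 on MS. The copia element AT5G35935 stood at 152 and 168 against 33.4 and 17.64 (-2.67, SE 0.36), with -3.05 on MS, and the CACTA element AT5G33395 at 65.3 and 70.7 against 6.39 and 13.1 (-2.76, SE 0.64), with -3.42 on MS where it was not called. Of 140 measured genes of this type, grouped after the values were seen, 6 (4.29%) fell and none rose. Among all measured genes 2.48% fell and 3.56% rose. Each of these 3 was lost in at least the fits without either wild-type library, with adjusted p up to 0.309.

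On the higher side GSTF6, a glutathione transferase of stress responses, stood at 518 and 647 against 4905 and 4700 (3.05, SE 0.15, adjusted p = 4.38e-06), with 375 to 785 on MS. AT5G66985, of unknown function, stood at 4.71 and 4.303 against 90.8 and 81.7 (3.99, SE 0.42), and CYP96A3, a cytochrome P450, at 4.71 and 9.84 against 150 and 134 (4.18, SE 0.61). AT3G05170, a phosphoglycerate mutase family gene, had no read in the wild type on lincomycin and stood at 66.7 and 56.9 in irx3-2, at least 68.3-fold higher. MEE38 had 1 read in the wild type on lincomycin, a ratio of 166 with a 95% counting interval from 29.4 to 6614. AT2G06995 also had 1 read there, a ratio of 119 with an interval from 20.9 to 4737. The 5.8S ribosomal RNA gene AT2G01020 had 1, a ratio of 197 (34.9 to 7821). All nuclear ribosomal RNA took 0.959% and 0.0872% of the reads in the irx3-2 lincomycin libraries. In the wild type on lincomycin it took 0.24% and 0.29%. The part of ribosomal RNA removal in the level of AT2G01020 was not tested. CMT1 and AT1G61320, each with 2 wild-type reads, had ratios of 60 (16.2 to 502) and 57.1 (15.4 to 478), and AT1G03106, with 3, had 49.4 (16.5 to 243). These intervals and bounds cover counting error only. The genes of this paragraph with values or reads given so far, other than GSTF6, were under 10 normalized counts in both wild-type libraries. They could therefore be measured here only if they were higher in irx3-2, so their direction was fixed by the filter. Of all measured genes, 170 passed through the irx3-2 libraries only, and 30 of these were called. AT4G23590 (4.72) and AT5G66780 (4.59) complete the list. GSTF6 and AT5G66985 held in all 4 fits with a library left out, and the interaction was called for both; CYP96A3, AT2G06995 and AT4G23590 held in 1 fit, and MEE38 in both fits in which it was measured. AT3G05170, AT2G01020, CMT1, AT1G61320, AT1G03106 and AT5G66780 held in none, and the adjusted p of these 10 genes other than GSTF6 and AT5G66985 reached up to 0.326.

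**Figure D5:**
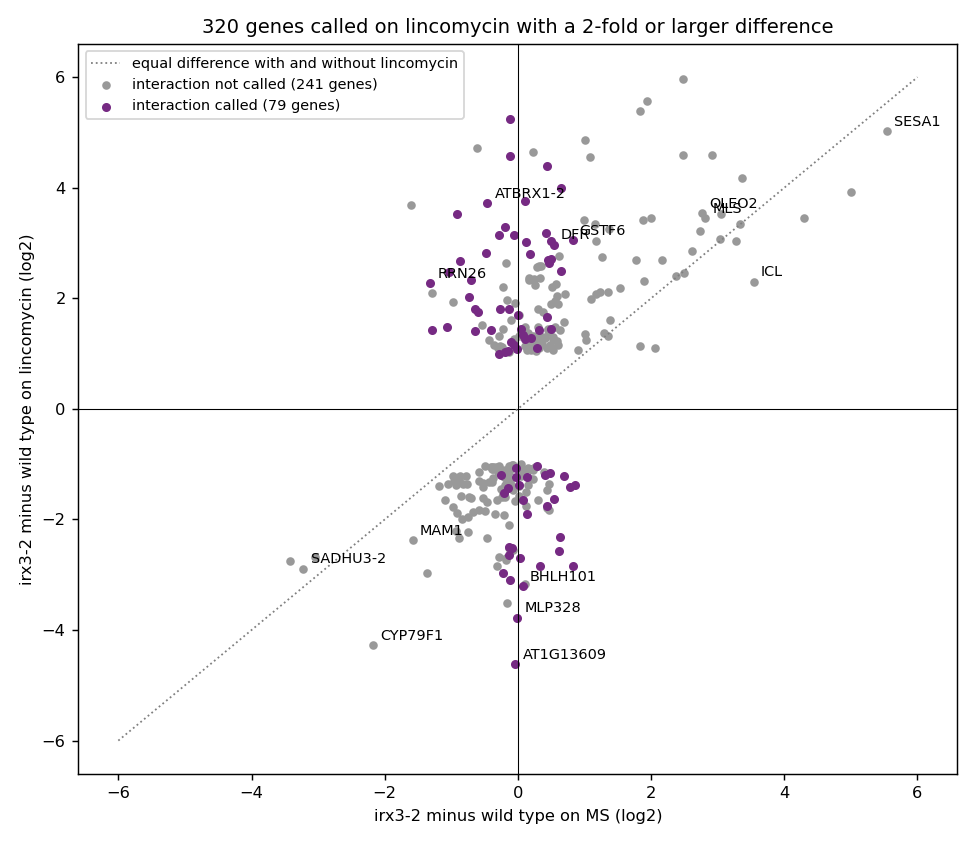
Difference between irx3-2 and wild type on lincomycin (log2, y axis) against that on MS (log2, x axis) for the 320 called genes with a 2-fold or larger difference; the dotted line marks equal differences. The 79 genes with a called interaction (purple) include ATBRX1-2, DFR and AT1G13609, and RRN26, which has opposite signs on the axes (-1.32 and 2.27), while CYP79F1, ICL, OLEO2 and SADHU3-2 lie away from 0 on both axes.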

How the data were processed

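The deposited tables hold normalized counts, a signal that the authors made by dividing reads per gene by 1 size factor per library, with their log2 fold changes and p-values, per the file headers. Trimmomatic, FastQC, TopHat2 2.1.1, featureCounts, DESeq2 and build TAIR10 are named, per the submitters' processing notes; strand and multiply mapped reads are not given in the sources used here. Dividing by the value of 1 read gave whole reads for 100% of values within 0.01. limma 3.58.1 (R 4.3.3) fitted log2(normalized count + 1) for 20251 genes that reached 10 normalized counts in 2 or more of 8 libraries, with 4 group means, 4 residual degrees of freedom and a mean-variance trend. edgeR 4.0.16 and DESeq2 1.42.0 on these reads were alternatives. The fits were tested on simulated data. Members and lists were chosen with earlier results of these data known. Named are the 15 largest non-overlapping calls in each direction with a mean of at least 20 in the higher group and under 20% of their length covered by another gene, CESA7, up to 5 calls per list or else its smallest p, and every early flavonoid gene; other genes named were chosen after their values were seen.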

Additional observations from a re-analysis of the deposited data

Results flagged for a closer look

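For 52 named genes the genotype difference on lincomycin differed from that on MS, by the interaction term of limma with an adjusted p under 0.05; the values are the difference on lincomycin minus that on MS on the log2 scale. Among ribosome assembly genes and others lowest in the wild type on lincomycin these were ATBRX1-2 (4.19), IMP4 (3.66), MEE49 (3.42), ATBRX1-1 (2.77), DIM1B (3.29), AT3G13180 (3.49), FIO1 (3.21), AT5G40530 (3.03), AT2G07739 (4.69), AT2G25980 (3.52), MSL9 (4.43), RRN26 (3.59) and ABR (3.97). Among flavonoid and anthocyanin genes they were DFR (2.42), LDOX (2.88), UF3GT (2.54), GSTF12 (2.17), AT4G14090 (2.22), F3'H (2.62), UGT78D2 (1.21) and CHS (0.71). Genes of plastids and chaperones gave CPN60B1 (0.82), CPHSC70-1 (0.76), HSP70-4 (1.29), GSA2 (0.77), FLN1 (1.04) and LHCB1.4 (-1.06). Metabolic and stress genes with positive values were GSTF6 (2.23), ADH1 (2.24), PCK1 (1.11), CSY3 (0.95), GH3.3 (1.71), MEE38 (5.36) and AT5G66985 (3.34).

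Negative values belonged to the iron regulators BHLH100 (-3.16) and BHLH101 (-3.28), to the suberin genes ABCG6 (-2.36) and RWP1 (-1.38), and to the sugar-repressed genes ASN1 (-1.72) and SEN1 (-1.08). Defence and calcium genes gave AT1G13609 (-4.58), AT1G66090 (-2.94), AT1G66100 (-2.99), MLP328 (-3.77), OSM34 (-2.73), WRKY70 (-2.05), CBP60G (-2.18), AT4G19520 (-1.28) and TCH3 (-2.43). The others were AT2G00920 (-3.66), PELPK1 (-2.74) and EXPA8 (-1.20). No explanation was tested for any of them.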

How the results depend on the processing

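Genotype calls on lincomycin numbered 1144 (675 higher, 469 lower). They numbered 1458 (830 and 628) with edgeR, 1461 (868 and 593) with DESeq2 and 1099 (592 and 507) with size factors from nuclear genes other than ribosomal RNA, which moved the median of all genes from 0.0084 to -0.0162. With the 4 lincomycin libraries alone there were 3848 (2141 and 1707), without a filter on low values 617 (358 and 259) and without the mean-variance trend 124 (73 and 51). Leaving out 1 lincomycin library gave between 116 and 213, with 73 to 104 higher and 43 to 111 lower. The fewest, 116, were without wild-type replicate 3.

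Calls on MS (44, with 32 higher and 12 lower) numbered 134 (83 and 51) with DESeq2, 8 (7 and 1) without a filter, 11 (8 and 3) without the trend, and 15 to 18 (11 to 13 and 4 to 5) with a lincomycin library left out. Interaction calls (132, with 71 and 61) numbered 371 (200 and 171) with DESeq2, 189 (91 and 98) with edgeR, 38 (20 and 18) without a filter, 11 (7 and 4) without the trend, and 11 to 27 (8 to 11 and 3 to 17) with a library left out. The share of higher calls on lincomycin was 59.0%, and 47.9% without irx3-2 replicate 3.

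The replicate block gave 337 calls on lincomycin (170 and 167), 18 on MS (15 and 3) and 24 interactions (13 and 11). Deviations of same-numbered libraries from their group means correlated between -0.155 and 0.152. With 2 libraries a group the 2 deviations mirror each other, so these values cannot decide whether replicate numbers pair the samples. The lincomycin groups share only number 3. The cause of these shifts was not tested. Of 184 named calls, 184 were made by edgeR, 179 by DESeq2 and 91 with the block; 51 held in each of the 4 fits with a library left out, and none of the 184 turned its direction under any alternative run. Of 192 named genes that were not called, 48 turned direction under at least 1 alternative. In all 1144 calls both libraries of 1 genotype lay above both of the other. Leaving out a library, changing the filter or dropping the trend could therefore not turn a call's direction. Nothing is read from the steady direction of the calls in those runs. The authors' deposited table called 1432 of these genes, 1099 of them among the 1144. With 2 libraries a group, small differences are measured with little precision.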
